A study of Mus musculus with 15 samples.

Results

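The genes described here code for sodium, potassium and calcium channel subunits, together with 2 ankyrins, in sorted cells of the mouse embryonic cortex. They were taken by gene symbol from the deposited count table: every Scn, Kcn, Cacna, Cacnb and Cacng gene of the usual numbered form, plus Ank2 and Ank3, with 2 potassium channel genes set aside by the same rule. This gave 120 of the 55367 genes in the table, of which 14 are sodium channel genes, 78 potassium channel genes, 26 calcium channel genes and 2 ankyrins. All are annotated as protein-coding. The set is wider than the voltage-gated channels alone: it holds 14 inward-rectifier (Kcnj) and 13 two-pore-domain (Kcnk) potassium channel genes, 7 genes of calcium- or sodium-activated potassium channels, and auxiliary subunits, among them the Cacng genes, several of which are known mainly as partners of glutamate receptors.

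The study, by its title, sets out to identify superior and inferior neural progenitors inside the embryo. Medial cortex of C57BL/6 mice at embryonic stage E11.5 was dissociated and the cells were sorted after staining with annexin V, which binds phosphatidylserine exposed on the outer face of the membrane, and with propidium iodide (PI), a dye kept out by an intact membrane. Bulk RNA libraries were made with a modified smart-seq2 method, a full-length cDNA protocol for small inputs, from 6 AnnexinV-positive, PI-negative samples and from 6 samples that took up neither stain (double-negative). All 12 come from the same strain, stage and tissue, with no genetic change or drug named in the labels. Another 3 samples of the series have no label for a sort and were not analysed here. No label ties a library to an embryo or a sort, so the p-values below reflect how far these libraries scatter, part of which may be technical.

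Neurons send signals by opening voltage-gated channels: sodium channels carry the rising phase of the action potential, potassium channels end it and set the resting potential, and calcium channels couple it to transmitter release and gene expression. Ankyrins are adaptor proteins that tie such channels to the spectrin and actin skeleton. Ankyrin-G, the product of Ank3, gathers sodium channels and Kcnq potassium channels at the axon initial segment, and ankyrin-B, the product of Ank2, lies along the axon and takes part in axonal transport. At this stage the cortical wall consists mostly of dividing progenitors, with the first neurons at its surface.

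How far the counts belong to single genes depends on how alike the genes of a family are, so a matching stretch of both ankyrins is printed first. Each line is 90 bases of coding sequence on GRCm38, 5′ to 3′ on the gene's own strand, read at positions from GENCODE M21; capitals mark the bases of Ank2 that differ from Ank3.
Ank3 (chr10:69824318-69824407, plus strand, exon 7): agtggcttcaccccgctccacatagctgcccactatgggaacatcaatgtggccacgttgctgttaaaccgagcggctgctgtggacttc
Ank2 (chr3:127048191-127048280, minus strand, exon 8): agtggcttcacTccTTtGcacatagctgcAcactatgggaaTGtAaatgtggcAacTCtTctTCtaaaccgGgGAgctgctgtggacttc
Ank2 differs from Ank3 at 17 of the 90 bases and is 81.1% identical here. This window was picked as the one with the fewest differences, compared without gaps inside single coding exons. It therefore shows the closest match of both genes and not their typical identity. Over all annotated exons, 6.49% of the 50-base words of Scn3a also occur in another gene. The largest shares are with Scn2a (529 of 12500 words), Scn9a (406) and Scn1a (287). For Ank3 the share is 0.0084%, and for Cacna2d1 0.0080%. How the authors counted reads that fit several genes is not given in the sources used here, so the Scn3a values may hold a small part from these relatives.

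Depth limited what could be tested. Total counts were 190694 to 444412 in AnnexinV-positive libraries and 88193 to 329813 in double-negative libraries, and 1 count was worth between 2.41 counts per 1000000 (CPM, scaled by TMM factors) in AnnexinV-positive library 5 and 15.4 CPM in double-negative library 3. Genes with a count numbered 9145 to 10065 and 6571 to 8887 in the same order, the lowest being double-negative libraries 3 and 5. Haemoglobin genes took 11.998%, 30.8% and 12.3% of all counts in libraries 1, 2 and 3 of the double-negative group, while no other library exceeded 0.00964%. Results are therefore also given without double-negative libraries 1 to 3, and without 3 and 5.

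Of the 120 genes, 65 had a count in some library and 55 had none. A count of 0 allows up to 0.000675% of the counts of the deepest library and 0.00340% of the shallowest, with counting error only. The genes without a count were 44 potassium, 6 sodium and 5 calcium channel genes, and among them were Scn4a, Kcna1, Kcna2, Kcnq5 and Cacna1s. A further 48 genes had 1 to 29 counts over all 12 libraries, and 17 had 30 or more. The filter on low counts left 5 genes for testing (Ank2, Ank3, Scn3a, Cacna2d1 and Kcnh7), 4.17% of the set, against 6.86% of all genes in the table. These 5 held 1487 of the 2612 counts of the whole set. For Ank3 and Scn3a the filter was met in 6 double-negative but only 2 AnnexinV-positive libraries, so they entered the test through the group in which they were high, and the counts over the tested genes are no measure of the other 115.

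Ank3 and Scn3a were lower in AnnexinV-positive cells, and no gene of the set was called higher. Of the 5 tested genes, 2 were called lower and 0 higher by edgeR's quasi-likelihood test (two-sided, Benjamini-Hochberg adjusted p under 0.05 over 3800 genes), where 1.47% of all tested genes were called lower and 0.395% higher. At an unadjusted p under 0.05 there were 4 lower, where 7.68% of all tested genes were, and again 0 higher. DESeq2 also called 2 lower and 0 higher, where it called 3.18% of all tested genes lower and 1.63% higher. All 5 log2 fold changes (AnnexinV-positive minus double-negative) were negative, as were 46.7% of those of all tested genes, whose median was 0.06. Ank3 and Scn3a met the filter through the double-negative group, which can tilt the counts over these 5 genes towards lower. Set beside the shares of all tested genes, here and below, these counts are a description and no support. The same can hold for the other gene lists below.

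**Figure D1:**
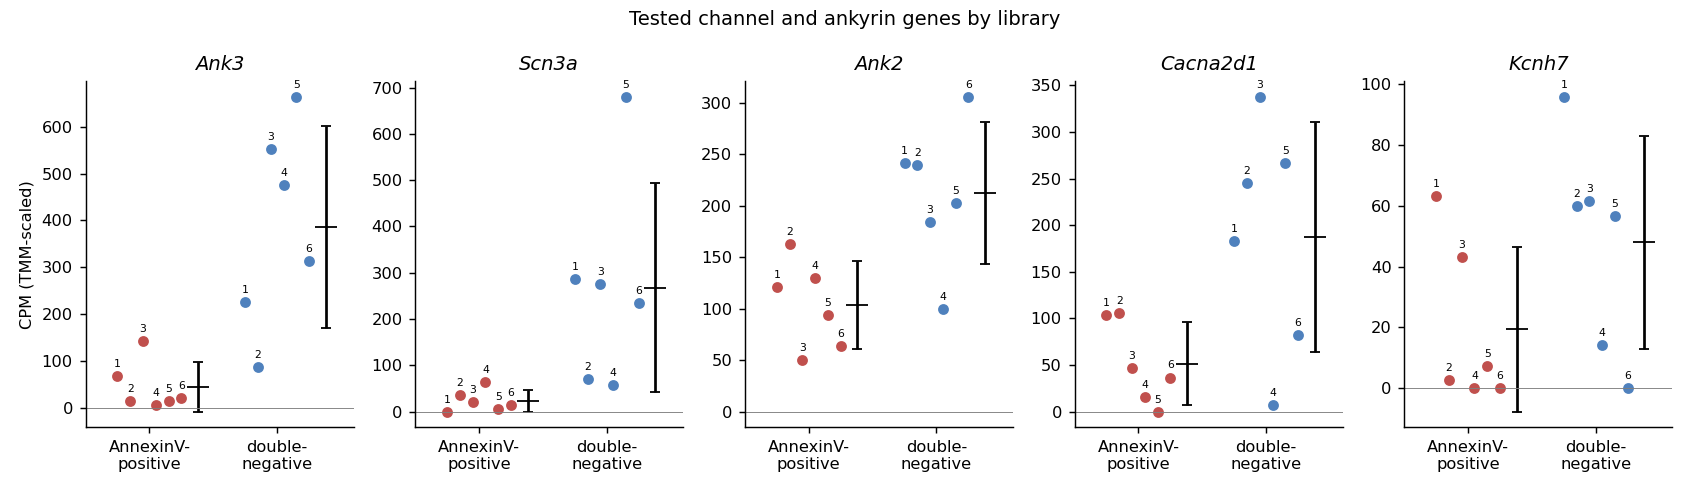
Levels of the 5 tested genes (CPM, TMM-scaled; y axis) in 6 AnnexinV-positive libraries (left in each panel) and 6 double-negative libraries (right); each point is a library, labelled by its replicate number, and the black mark is the mean with its SD. Ank3 averaged 45.0 CPM in the AnnexinV-positive group against 386 CPM in the double-negative group, and for each of the genes the groups overlap in at least 1 library.

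The ankyrins held the most counts per gene. Ank3 (chr10:69398773-70027438, GRCm38), coding for ankyrin-G, was at 68.9, 15.5, 143, 6.31, 14.5 and 21.4 CPM in AnnexinV-positive libraries 1 to 6, against 225, 87.1, 553, 476, 664 and 313 CPM in double-negative libraries 1 to 6. AnnexinV-positive library 3 lay above double-negative library 2, and the other AnnexinV-positive libraries lay below all double-negative ones. The mean was 45.0 ± 53.1 CPM in the AnnexinV-positive group against 386 ± 216 CPM in the double-negative group (mean ± SD, n = 6 each), a log2 fold change of -3.13 (SE 0.63, edgeR adjusted p = 0.0104), and 6 of 6 AnnexinV-positive libraries were below the double-negative median.

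The estimated size of the Ank3 difference varied with the replicate numbers used, but this variation did not pass the threshold. Within replicates 1 to 3 the log2 fold change was -1.86 (SE 0.75) with an edgeR adjusted p of 0.316, and within replicates 4 to 6 it was -5.08 (SE 0.56) with an adjusted p of 0.00107. These fits called 0 and 1 of the 5 genes lower, where 0.974% and 0.474% of all tested genes were; 3 of the 5 had an unadjusted p under 0.05 in each, where 12.1% and 10.9% of all tested genes did. The difference between the replicate sets was -3.18 (SE 0.99), with an unadjusted edgeR p of 0.00398 and an adjusted p of 0.386. In that test 0 of the 5 genes passed, where 0.0789% of all genes did, and 1 had an unadjusted p under 0.05, where 6.29% of all genes did. Without double-negative libraries 3 and 5 the Ank3 fold change was -2.69 and the edgeR adjusted p 0.0700; leaving out any single library it ran from -4.02 to -2.89 and stayed past the threshold.

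Ank2 (chr3:126921612-127499350), coding for ankyrin-B, met the filter in all 12 libraries. It was at 121, 163, 50.1, 129, 94.0 and 64.1 CPM in AnnexinV-positive libraries 1 to 6 and at 242, 239, 184, 99.4, 202 and 306 CPM in double-negative libraries 1 to 6. All AnnexinV-positive values lay below the double-negative median, while 3 of them were above double-negative library 4. The means were 103 ± 42.3 and 212 ± 69.2 CPM (mean ± SD, n = 6 each), and the log2 fold change of -1.04 (SE 0.38) did not pass the threshold (edgeR adjusted p = 0.169).

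Ank3 and Ank2 were also set against each other within the libraries. Ank3 made up 73 of 272 ankyrin counts in AnnexinV-positive cells (26.8%, 95% exact binomial interval 21.7 to 32.5) and 342 of 580 in double-negative cells (59.0%, 54.8 to 63.0); the intervals cover counting error only, for reads without molecular identifiers. Per library the log2 ratio of Ank3 to Ank2 counts, with 0.5 added to each, averaged -1.79 ± 1.99 in AnnexinV-positive libraries and 0.66 ± 1.39 in double-negative libraries (mean ± SD, n = 6 each). The ratio was chosen after the values had been seen and is given as a description. The groups differed by -0.87 in replicates 1 to 3, by -4.04 in replicates 4 to 6, and by -3.11 to -2.002 when any 1 library was left out.

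Among the sodium channels, most of the counts were of Scn3a, a pore-forming subunit that is strongly expressed in the embryonic brain and declines after birth. Scn3a (chr2:65457118-65567627) was at 0, 36.2, 21.5, 63.1, 4.82 and 15.3 CPM in AnnexinV-positive libraries 1 to 6, against 287, 70.7, 276, 56.8, 680 and 234 CPM in double-negative libraries 1 to 6. Only AnnexinV-positive library 4 reached above a double-negative one, library 4. The means were 23.5 ± 23.2 CPM and 268 ± 226 CPM (mean ± SD, n = 6 each), with a log2 fold change of -3.43 (SE 0.64, edgeR adjusted p = 0.00481) and 6 of 6 AnnexinV-positive libraries below the double-negative median.

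Double-negative library 5 was far above its group for Scn3a, and without it the log2 fold change was -2.92 (edgeR adjusted p = 0.0247). Leaving out any single library gave values from -3.97 to -2.92, all past the threshold. With replicates 1 to 3 alone the fold change was -3.26 (edgeR adjusted p = 0.0759), with replicates 4 to 6 alone -3.57 (adjusted p = 0.110), and -2.78 without double-negative libraries 3 and 5 (adjusted p = 0.0835).

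The other pore-forming sodium channel genes had few counts. Scn8a, which later replaces other subunits at the axon initial segment, had 0, 0, 0, 0, 2 and 9 counts in AnnexinV-positive libraries 1 to 6 and 13, 1, 2, 6, 4 and 1 in double-negative libraries 1 to 6, so it was present in 2 and in 6 libraries. Scn2a had 3 counts in AnnexinV-positive libraries and 23 in double-negative libraries, and Scn1a had 0 and 15. The auxiliary subunit gene Scn2b had 18 and 14 counts in AnnexinV-positive libraries 2 and 5, and 2 counts, all in library 5, among double-negative libraries, while Scn3b had 0 counts in AnnexinV-positive libraries and 18 in double-negative libraries. Without Scn3a the summed sodium channel level was 25.7 ± 18.9 CPM in the AnnexinV-positive group against 89.9 ± 71.8 CPM in the double-negative group (mean ± SD, n = 6 each), and the groups overlapped.

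Scn3a took 47 of 101 sodium channel counts in AnnexinV-positive cells (46.5%, 95% exact binomial interval 36.5 to 56.7) and 257 of 350 in double-negative cells (73.4%, 68.5 to 78.0). By library this share ran from 0% to 95.2% in AnnexinV-positive libraries, where the family had 3 to 32 counts, and from 44.4% to 90.3% in double-negative libraries. The intervals cover counting error only and not this spread between libraries.

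Calcium channels were led by Cacna2d1, an auxiliary alpha2delta subunit that brings the channel to the surface and binds gabapentin. Cacna2d1 (chr5:15934691-16374511) was at 103, 106, 46.6, 15.8, 0 and 36.6 CPM in AnnexinV-positive libraries 1 to 6 and at 183, 245, 338, 7.10, 267 and 82.7 CPM in double-negative libraries 1 to 6. Double-negative library 4 lay below 5 of the 6 AnnexinV-positive libraries, double-negative library 6 lay below AnnexinV-positive libraries 1 and 2, and the other 4 double-negative libraries lay above all AnnexinV-positive ones. The means were 51.4 ± 44.3 and 187 ± 123 CPM (mean ± SD, n = 6 each); the log2 fold change of -1.86 (SE 0.72) did not pass the threshold (edgeR adjusted p = 0.191).

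The subunit classes of the calcium channels differed in how far their summed levels lay apart. The alpha1 genes, which form the pore, summed to 21.7 ± 18.2 CPM in the AnnexinV-positive group against 71.0 ± 45.5 CPM in the double-negative group, and the alpha2delta genes to 54.1 ± 42.8 and 230 ± 141 CPM (mean ± SD, n = 6 each). The gamma genes summed to 38.2 ± 18.2 and 72.0 ± 48.7 CPM, and the beta genes, whose products sit on the inner face of the channel, to 31.6 ± 24.8 and 34.6 ± 14.8 CPM. The groups overlapped in each class, and these sums were not tested.

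The 4 calcium channel genes below the filter with 30 or more counts all had a lower mean CPM in AnnexinV-positive libraries, each with overlapping groups. Other measures did not all share this direction. Without the filter the log2 fold change was 0.02 for Cacnb3, and -0.51, -0.39 and -1.25 for Cacng4, Cacng7 and Cacna1b. For Cacng7, 6 of 6 AnnexinV-positive libraries lay above the double-negative median. Cacng4, whose product is an AMPA receptor partner, was at 16.5 ± 18.3 CPM in the AnnexinV-positive group against 25.7 ± 25.8 CPM in the double-negative group. Cacng7, of the same group, was at 15.7 ± 9.09 CPM in AnnexinV-positive libraries, with counts in all 6, and at 24.8 ± 48.6 CPM in double-negative ones, where 15 of its 20 counts were in library 5 and the other 5 in library 2. Cacnb3, a beta subunit gene, was at 18.3 ± 17.7 and 20.7 ± 16.02 CPM. Cacna1b, the pore of the N-type channel of nerve endings, was at 6.71 ± 10.8 CPM in the AnnexinV-positive group against 20.3 ± 20.6 CPM in the double-negative group. Of the genes with fewer counts, Cacna1g, a T-type channel, had 13 counts in AnnexinV-positive libraries and 0 in double-negative libraries, and Cacna2d3 had 1 and 24; both were picked out here after their values had been seen.

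**Figure D2:**
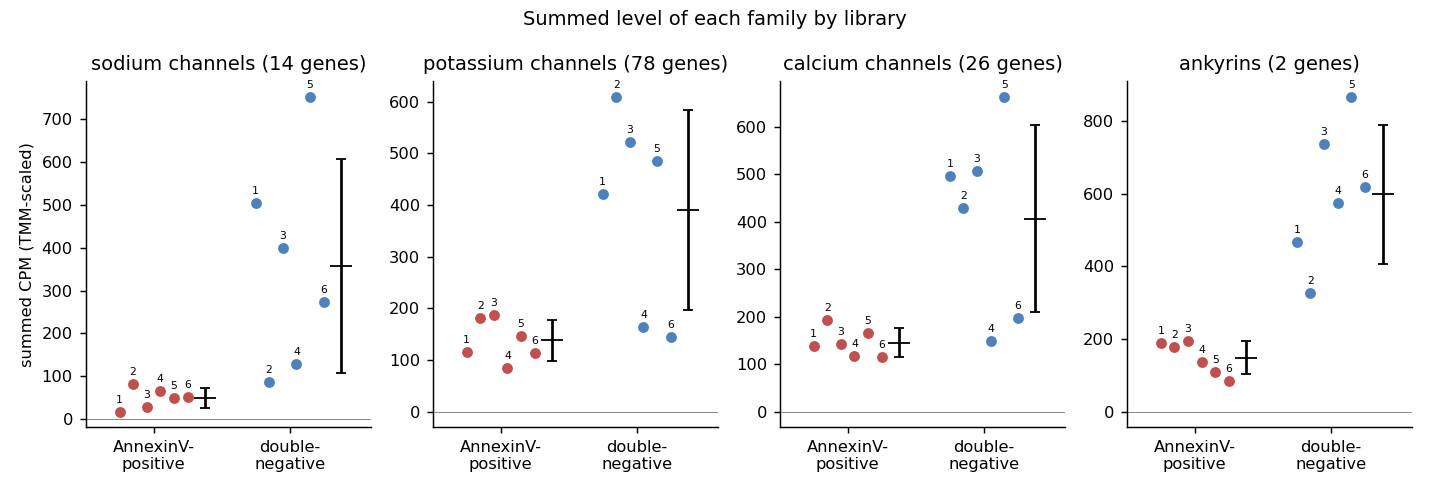
Summed level of each gene family (CPM, TMM-scaled; y axis) in 6 AnnexinV-positive libraries (left in each panel) and 6 double-negative libraries (right); each point is a library, numbered by replicate, and the black mark is the mean with its SD. The sodium channel and ankyrin sums do not overlap between the groups, while the potassium and calcium channel sums do. Without Scn3a the sodium channel sums overlap, and so does Ank2 without Ank3.

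Potassium channel genes were the most numerous and the sparsest. Only Kcnh7 was tested, which codes for a channel of the ether-a-go-go-related type and was at 63.1, 2.58, 43.0, 0, 7.23 and 0 CPM in AnnexinV-positive libraries 1 to 6 and at 95.8, 59.9, 61.4, 14.2, 56.7 and 0 CPM in double-negative libraries 1 to 6. Both groups held libraries at 0. The means were 19.3 ± 27.0 and 48.0 ± 35.0 CPM (mean ± SD, n = 6 each), and the log2 fold change of -1.38 (SE 1.04) did not pass the threshold (edgeR adjusted p = 0.572). Kcnh7 (chr2:62693414-63184287) shares 4.57% of its exon bases with Gca on the opposite strand, and the strand setting of the counts is not given in the sources used here.

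Kcnq3 codes for a subunit of the M-current channel that ankyrin-G holds at the axon initial segment. It had 0, 0, 8, 0, 0 and 6 counts in AnnexinV-positive libraries 1 to 6 and 18, 4, 11, 0, 14 and 3 in double-negative libraries 1 to 6. The means were 7.83 ± 12.6 CPM in the AnnexinV-positive group and 65.0 ± 66.7 CPM in the double-negative group (n = 6 each), with counts in 2 of 6 AnnexinV-positive and 5 of 6 double-negative libraries. Without the filter its log2 fold change was -2.74, with an edgeR adjusted p of 0.188 and an unadjusted p of 0.0117.

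Other potassium channel genes with 30 or more counts rested on 1 or a few libraries. Kcnk10, a two-pore-domain leak channel opened by stretch and lipids, was at 18.4 ± 10.8 CPM in AnnexinV-positive libraries, with counts in 5 of 6, and at 45.7 ± 87.3 CPM in double-negative ones, where 41 of its 52 counts were in library 2. Its relative Kcnk2 had counts in 1 library of each group, 11 in AnnexinV-positive library 2 and 21 in double-negative library 5. Kcnd3, an A-type channel, was at 17.3 ± 25.2 CPM in the AnnexinV-positive group against 15.9 ± 24.7 CPM in the double-negative group. Kcnj10, an inward rectifier of glial cells, had 26, 10 and 3 counts in AnnexinV-positive libraries 2, 5 and 6, and 6 counts in double-negative library 2 alone; the inward-rectifier genes together were at 20.0 ± 25.7 CPM in the AnnexinV-positive group against 9.12 ± 12.3 CPM in the double-negative group.

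**Figure D3:**
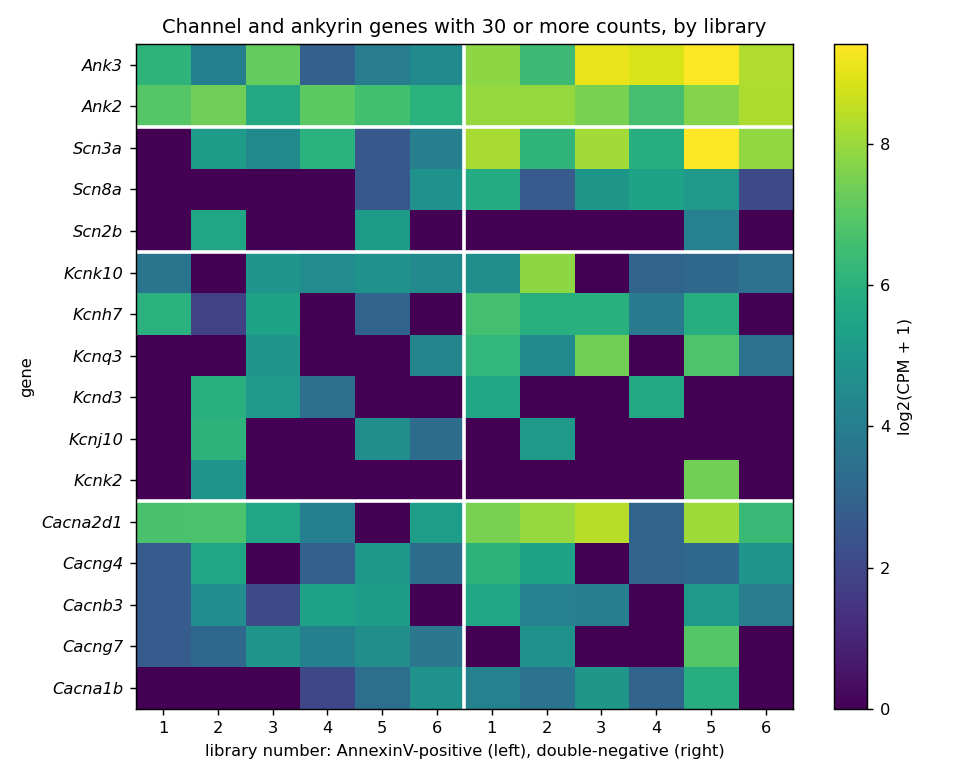
Levels of 16 genes with 30 or more counts (rows, grouped by family) in each library (columns, AnnexinV-positive on the left, double-negative on the right), coloured by log2(CPM + 1) from dark (0) to bright. Ank2 is above 0 in all 12 libraries, Ank3 and Scn3a are brighter on the double-negative side, and most genes below the filter appear in scattered libraries.

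By family, the ankyrin sum was 189, 178, 193, 136, 108 and 85.5 CPM in AnnexinV-positive libraries 1 to 6 and 467, 327, 737, 575, 866 and 618 CPM in double-negative libraries 1 to 6. The sodium channel sum was 17.2, 82.7, 28.7, 66.2, 48.2 and 51.9 CPM in AnnexinV-positive libraries and 504.1, 87.1, 399, 128, 753 and 273 CPM in double-negative libraries. For these 2 families the groups did not overlap, with the sodium channel sums of AnnexinV-positive library 2 and double-negative library 2 close together. Without Scn3a the sodium channel sums overlapped, and so did Ank2 without Ank3. How often such sums of other genes do not overlap was not counted. The calcium channel sum was 116 to 194 CPM in AnnexinV-positive libraries and 149 to 664 CPM in double-negative libraries, and the potassium channel sum 85.1 to 186 and 144 to 610 CPM, both with overlap. In both of these families the lowest double-negative values were those of libraries 4 and 6. With Ank3 and Scn3a taken out, the sum of all remaining genes was 330 to 584 CPM in AnnexinV-positive libraries and 483 to 1425 CPM in double-negative libraries, again overlapping. No test was made on these sums.

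Across the 65 genes with counts, the mean CPM was lower in AnnexinV-positive libraries for 46 and higher for 19, where 48.5% of all genes with counts were lower. The split was 2 lower and 0 higher for ankyrins, 6 and 2 for sodium, 22 and 12 for potassium and 16 and 5 for calcium channel genes. Counts were found in AnnexinV-positive libraries alone for 10 genes and in double-negative libraries alone for 13, while among all genes with counts 17.9% were found in AnnexinV-positive libraries alone and 11.9% in double-negative libraries alone. When all 17283 genes with counts were tested without the filter, edgeR called Ank3 and Scn3a lower among the 65 and none higher; 0.787% of all those genes were called lower.

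The number of genes of the set that were detected was also counted by library. AnnexinV-positive libraries 1 to 6 held counts for 15, 17, 22, 22, 25 and 20 of the 120 genes, and double-negative libraries 1 to 6 for 32, 28, 22, 23, 25 and 20. The numbers of double-negative libraries 1 and 2 lay above all others, and those of libraries 3 to 6 lay within the AnnexinV-positive range. As a share of the genes detected this was 0.160% to 0.248% in AnnexinV-positive libraries and 0.232% to 0.370% in double-negative libraries. Detection moves with depth, and the part of depth in these numbers was not tested.

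Levels of the 17 genes with 30 or more counts were divided by the length of all annotated exons of each gene, for a rough comparison. For Ank3 this was 34838 bases, against 5955 coding bases in the transcript printed above. Genes with such long annotated exons may be understated. In double-negative libraries Scn3a stood at 21.5 ± 18.1 CPM per kilobase of exon, Cacna2d1 at 15.1 ± 9.92, Ank3 at 11.1 ± 6.21, Cacng7 at 10.2 ± 19.9, Cacng4 at 7.19 ± 7.21 and Ank2 at 6.06 ± 1.98 (SD, n = 6). In AnnexinV-positive libraries Cacng7 stood at 6.43 ± 3.72 CPM per kilobase, Cacng4 at 4.62 ± 5.11, Cacnb3 at 4.56 ± 4.42 and Cacna2d1 at 4.14 ± 3.57. Next came Kcnj10 at 3.10 ± 4.89, Ank2 at 2.96 ± 1.21, Scn2b at 2.87 ± 4.5 and Kcnk10 at 2.09 ± 1.23. Then followed Scn3a at 1.88 ± 1.87, Kcnd3 at 1.80 ± 2.63 and Ank3 at 1.29 ± 1.52 (SD, n = 6). In both groups each of these levels lay within 1 SD of the next.

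Partners of the ankyrins and channels were described from lists of other genes. Of 16 genes of the axon initial segment and node of Ranvier, 15 had counts and 6 were tested. edgeR called 0 of the 6, as did DESeq2 and limma, with 3 at an unadjusted p under 0.05, where 15.7% of all tested genes were; all 6 fold changes were negative, with a median of -0.93. Nrcam, a cell adhesion protein that binds ankyrin, was at 22.7 ± 25.7 CPM in the AnnexinV-positive group against 175 ± 100.1 CPM in the double-negative group (mean ± SD, n = 6 each), with a log2 fold change of -2.96 (SE 0.83, edgeR adjusted p = 0.0648). On the log2 scale Nfasc, its relative at the initial segment, was at -1.28 (SE 0.52, edgeR adjusted p = 0.214). The spectrin gene Sptan1 was at -1.09 (SE 0.47, edgeR adjusted p = 0.251). Cntnap2, a partner of potassium channels beside the node, was at -0.78 (SE 0.39, edgeR adjusted p = 0.341).

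None of 19 further auxiliary subunit genes passed the filter; 15 had counts, and their summed level was 58.3 ± 39.3 CPM in the AnnexinV-positive group against 100.7 ± 46.2 CPM in the double-negative group (n = 6 each), with overlap. The mean CPM was lower in AnnexinV-positive libraries for 10 of them and higher for 5. A list of 19 other voltage-sensitive and leak channel genes had 18 matched in the table and 16 with counts; 2 chloride transporter genes were tested, Clcn4 with a log2 fold change of -1.71 (SE 0.68, edgeR adjusted p = 0.198) and Clcn3 with -0.77 (SE 0.69, adjusted p = 0.634). Neither passed, 1 had an unadjusted p under 0.05, and DESeq2 and limma called 0. REST, a repressor that holds neuronal channel genes silent outside neurons, and its corepressors gave 5 tested genes, of which edgeR, DESeq2 and limma called 0 and 0 had an unadjusted p under 0.05. Rest itself was at 108 ± 54.1 CPM in the AnnexinV-positive group against 52.6 ± 52.1 CPM in the double-negative group, a log2 fold change of 0.95 (SE 0.66, edgeR adjusted p = 0.524), and the other smallest p-values were those of Kdm1a (log2 fold change -0.77), Sin3a (0.97) and Hdac1 (0.68).

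The levels of cell type markers also differed between the groups, in a direction that depended on the cell type. The marker lists were chosen with earlier results of these data known, so they are a description and no independent support. The summed level of 16 neuron markers was 360 to 1017 CPM in AnnexinV-positive libraries and 2066 to 4812 CPM in double-negative libraries. A lower mean in AnnexinV-positive libraries was found for 16 of the 16. edgeR called 7 of 11 tested lower, where 1.47% of all tested genes were. Myt1l, with 6 counts on the AnnexinV-positive side against 144, met the filter through the double-negative group. Such entries can tilt the comparison with all tested genes towards lower, so it is a description and no support. Celf4 was at -3.15 (SE 0.42), Dcx at -3.05 (SE 0.41), Stmn2 at -4.06 (SE 0.60) and Myt1l at -5.35 (SE 0.84) on the log2 scale. The summed level of 12 neural progenitor markers was 3005 to 4056 CPM in AnnexinV-positive libraries and 834 to 2137 CPM in double-negative libraries. Of these markers 2 of 11 tested were called higher, where 0.395% of all tested genes were. They were Mki67 at 1.51 (SE 0.33) and Hmga2 at 2.14 (SE 0.46), while Vim at 1.11 and Notch1 at 1.12 did not pass. DESeq2 called 2 of the 11 tested progenitor markers, and limma called 0 with either addition to the score. Of the 11 tested progenitor markers 9 had a positive and 2 a negative fold change, Sox2 at -0.50 and Pax6 at -0.03; Sox2, named after its values were seen, had 6 of 6 AnnexinV-positive libraries under the median of the double-negative group, and neither passed. In bulk samples, fewer cells of a type and less RNA per cell cannot be told apart, and the part of neuron content in the channel results was not tested.

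Other cells that the sort could hold left marker counts in some libraries. The 6 endothelial markers summed to 0 to 345 CPM in AnnexinV-positive libraries and to 0 in all double-negative libraries. Mesenchyme and pericyte markers (7 of 8 with counts) summed to 0 to 849 CPM in AnnexinV-positive libraries and 0 to 250 CPM in double-negative libraries, where 5 of 6 were at 0. The mean CPM of these markers was higher in AnnexinV-positive libraries for 5 and lower for 2, Rgs5 and Pdgfrb. Macrophage markers (5 of 6 with counts) summed to 0 to 419 CPM and 0 to 91.7 CPM, and Cajal-Retzius markers (5 of 6) to 0 to 233 CPM and 75.0 to 593 CPM. Reln, the secreted product of Cajal-Retzius cells, was at -3.08 (SE 1.19, edgeR adjusted p = 0.207) on the log2 scale. All 9 blood markers had a higher mean in double-negative libraries, through libraries 1 to 3, and without those libraries the log2 fold change was -3.50 for Ank3 (edgeR adjusted p = 0.00792) and -3.73 for Scn3a (adjusted p = 0.0136).

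Set against the neuron markers of the same library, the genes differed in how their levels compared. Per 1000 CPM of the 16 markers, Ank2 was at 154 ± 59.4 CPM in the AnnexinV-positive group against 62.6 ± 29.1 CPM in the double-negative group (mean ± SD, n = 6 each), and Cacna2d1 at 67.3 ± 51.1 and 47.4 ± 29.03 CPM. Ank3 was at 54.1 ± 48.3 CPM in the AnnexinV-positive group against 114 ± 72.2 CPM in the double-negative group, and Scn3a at 35.9 ± 35.4 and 67.1 ± 44.1 CPM. The groups overlapped for all of them. This measure was chosen after the values had been seen and was not tested.

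**Figure D4:**
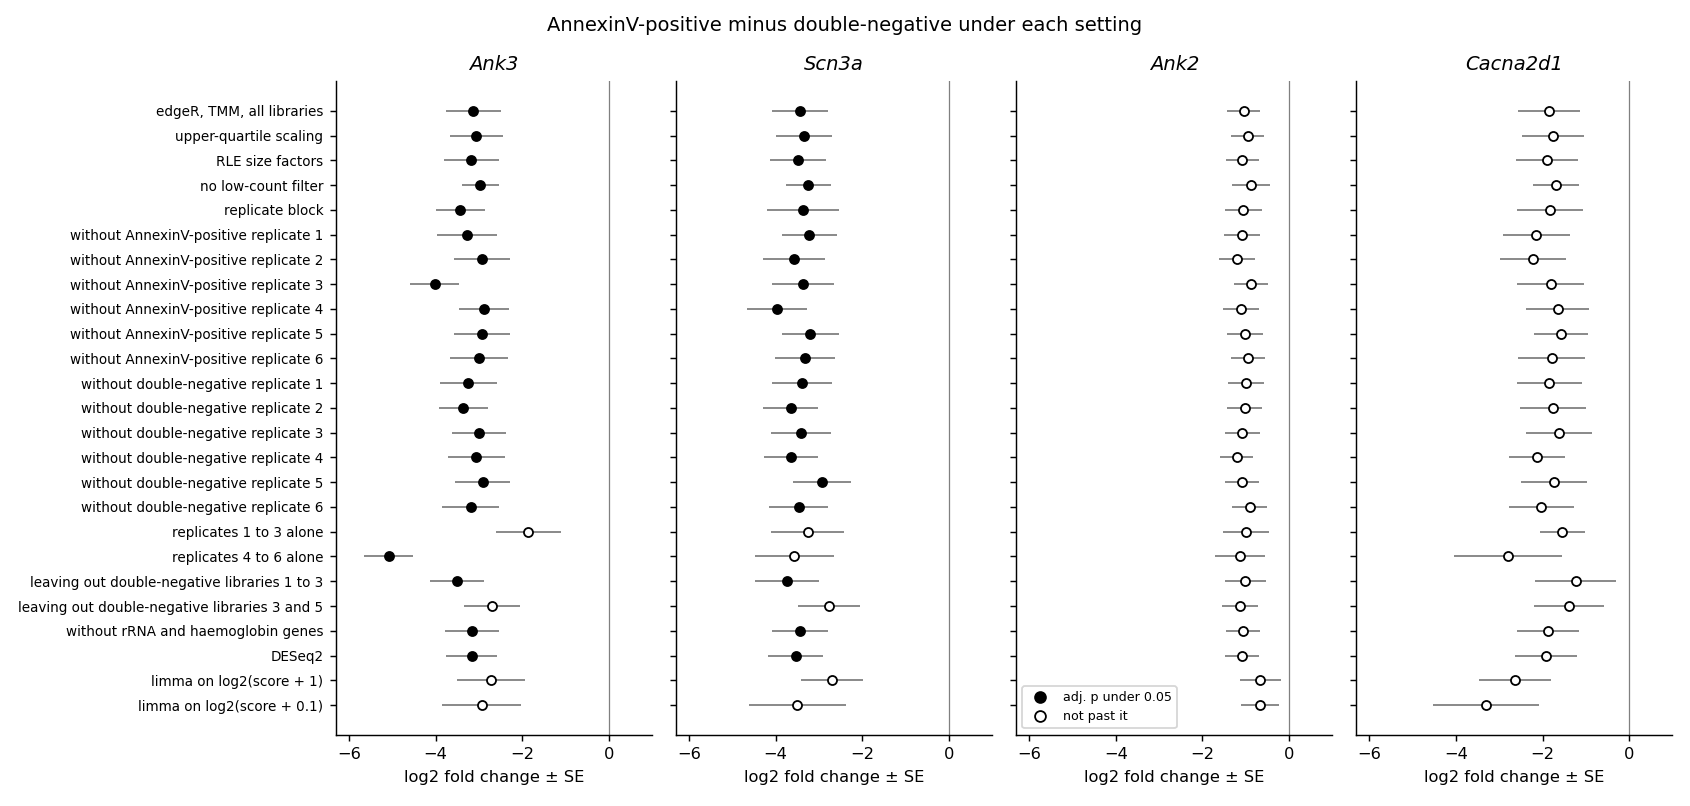
Log2 fold change, AnnexinV-positive minus double-negative (x axis), of Ank3, Scn3a, Ank2 and Cacna2d1 under the reported fit (top row) and 24 alternatives (rows); the bars are SE and filled points passed an adjusted p of 0.05. All values lie below 0; Ank3 passed in 20 and Scn3a in 19 of the 24 alternatives, and Ank2 and Cacna2d1 in 0.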

How the data were processed

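The data are 12 bulk RNA libraries of sorted cells, 6 AnnexinV-positive and 6 double-negative, grouped by the labels; the labels' replicate numbers are used as names. The deposited count table holds estimated counts, since 8.84% of its nonzero values were not whole, and the values were rounded to whole numbers for every count test, although whole raw counts had been assumed. A second deposited table, named TPM by the authors, has columns summing to between 764764 and 1835680, which is not what TPM gives. How the authors made this deposited table is not stated, so its values were handled as a score and entered alternatives only. The submitters' processing notes name the builds GRCm38 and mm10 and the tools STAR, Trimmomatic, Seurat 4 and featureCounts, without saying what each did. Counting rule, strand setting and annotation: not given in the sources used here. Positions and sequences are from GENCODE M21 on GRCm38, where all 120 symbols were found.

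Groups were compared by the quasi-likelihood test of edgeR 4.0.16 under R 4.3.3 (filterByExpr with minimum count 10 and minimum total 15, TMM, robust), with sort group as the sole term, fitted on the whole table and adjusted by Benjamini-Hochberg over 3800 genes at 0.05. A positive log2 fold change means higher in AnnexinV-positive libraries, and its SE is its size over the root of the F statistic. The scripts were tested on simulated data. Alternatives used DESeq2 1.42.0, limma 3.58.1 (log2 of the score plus 1 or plus 0.1), other scaling, no filter, a replicate block, and fewer libraries. Members and lists were chosen with earlier results of these data known. The text names each member that passed the filter, each other member with 30 or more counts (1 is not reported here), and up to 4 tested genes of each other list; others are named as examples chosen after their values were seen. Within groups, library pairs differed beyond sampling noise (chi-square per degree of freedom 4.44 to 30.1).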

Additional observations from a re-analysis of the deposited data

Results flagged for a closer look

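In groups of 6, the highest or lowest library was compared with the range of its group, and 10 of 40 groups had 1 library far from the others; chance alone flags about 5% of groups, and sparse counts with many zeros are prone to it. Scn3a had its highest double-negative value, 680 CPM, in library 5, while the next was 287 CPM. Without that library the log2 fold change of Scn3a was -2.92 (edgeR adjusted p = 0.0247).

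Among genes below the filter, Kcnk10 stood at 223 CPM in double-negative library 2, where 41 of its 52 counts of that group lay. Double-negative library 5 stood apart for Cacng7 at 121 CPM, for Kcnk2 at 170.0 CPM and for Scn2b at 16.2 CPM. AnnexinV-positive library 2 stood apart for Kcnj10 at 67.2 CPM and for Kcnk2 at 28.4 CPM, and double-negative library 2 for Kcnj10 at 32.7 CPM. AnnexinV-positive library 6 stood apart at 27.5 CPM for Scn8a and at 27.5 CPM for Cacna1b. The cause of these values was not tested.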

How the results depend on the processing

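The number of the 5 tested genes called lower was 2 in the reported fit and in each fit that left out 1 library (2 to 2). It was 0 with replicates 1 to 3 alone, 1 with replicates 4 to 6 alone and 0 without double-negative libraries 3 and 5. With limma on log2 of the score plus 1 and plus 0.1 it was 0 and 0. The number was 2 without double-negative libraries 1 to 3. That fit and the first 3 of these used fewer libraries, and not the same number of them. The cause of these differences was not tested. Under limma, Ank3 was at -2.72 and -2.94 (adjusted p = 0.0907 and 0.151) and Scn3a at -2.70 and -3.51 (adjusted p = 0.0796 and 0.155). The number called higher was 0 in the reported fit and in all 24 alternatives, and no tested gene changed sign in any. Over all genes, 71 passed in the reported fit, 237 without the filter, 21 with replicates 4 to 6 alone, 42 when double-negative libraries 1 to 3 were left out, 13 when 3 and 5 were, 183 with DESeq2, and 32 and 9 with limma. Leaving out 1 library gave 46 (without double-negative library 3) to 117 (without double-negative library 4). With upper-quartile scaling 42 genes were higher and 55 lower, against 15 and 56, and moved the median fold change of all genes by 0.08. Same-numbered libraries did not deviate together (correlations of -0.0069 to 0.0779, 3 of 12 libraries closest to their own number). This gave no sign that the numbers pair libraries, but sparse counts cannot exclude a shared origin. An edgeR fit with replicate number as a block called 71 genes and 2 of the set lower. In it Ank3 was at -3.43 (adjusted p = 0.0024) and Scn3a at -3.38 (adjusted p = 0.0385). The difference between replicate sets was tested in 1 fit. With depths of 88193 to 444412 counts, 115 of the 120 genes could not be tested.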
